A study of Homo sapiens with 12 samples.

Results

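Transcripts of Ramos, an established human line of Burkitt lymphoma B cells, were sequenced in 12 libraries, and a single division of those libraries is described: sample pairs 3, 4 and 6 against sample pairs 1, 2 and 5. Each pair is a library of cells with a miR-28 vector and a library of cells with a scrambled vector, so each side of the division holds 6 of the 12 libraries, 3 of each vector. The members of each side were chosen by their scores on the first principal component of the expression values, and the division matches no label of the study. All 12 libraries share the pTRIPZ vector backbone, selection with 0.4 µg/ml puromycin, 2 days of 0.5 µg/ml doxycycline and sorting for red fluorescence. Pair 3 carries no XENO number, pair 4 is XENO 1 and pair 6 is XENO 2, while pairs 1 and 5 are XENO 1 and pair 2 is XENO 2; what XENO means is not given. Library batch 1 holds pairs 3, 1 and 2, and batch 2 holds pairs 4, 6 and 5. Nothing in the labels says that the pairs came from separate cultures, so the spread between libraries may be technical.

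Burkitt lymphoma cells divide fast under a translocated MYC gene, a transcription factor that pairs with MAX, binds E-box sequences and drives ribosome production, nucleotide synthesis and glycolysis. The MXD proteins and MGA compete for MAX and repress many of the same genes. Cells that run short of nutrients or slow their growth engage other programmes: the kinases of the integrated stress response raise translation of the transcription factor ATF4, FOXO factors turn on genes of quiescence and autophagy, and chaperones, whose genes carry heat shock elements, are made according to the load of new protein.

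The 6 libraries of pairs 3, 4 and 6 held 15404730 to 26870974 reads over the 12725 genes of the table, and the 6 of pairs 1, 2 and 5 held 21160043 to 37876636. Their scaling factors did not overlap, at 1.01 to 1.08 in pairs 3, 4 and 6 and 0.912 to 0.967 in pairs 1, 2 and 5. MIR28, the induced gene, was at 1.14 to 3.16 CPM in the miR-28 libraries of pairs 3, 4 and 6 and at 0.983 to 1.74 CPM in those of pairs 1, 2 and 5, and no read of it was counted in any scramble library. Its mature microRNA is not measured in libraries of polyadenylated RNA. Mitochondrially encoded transcripts took 1.62 to 7.45% of reads in pairs 3, 4 and 6 and 1.19 to 2.38% in pairs 1, 2 and 5, with the highest share in the scramble library of pair 3.

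The first component took 67.6% of the variance of log2(CPM + 1), the second 11.9% and the third 9.34%. Libraries of pairs 3, 4 and 6 scored 15.6 to 71.3 on it, and those of pairs 1, 2 and 5 scored -51.3 to -31.2. The scramble library of pair 3 stood farthest out, at 71.3, and the miR-28 library of pair 6 lay nearest to the other side, at 15.6. Because this component set the sides, the differences below are given as a description, with their standard errors and without a test. The errors treat all libraries of a side as separate, although those of a pair deviated together, so they may be too small.

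**Figure D1:**
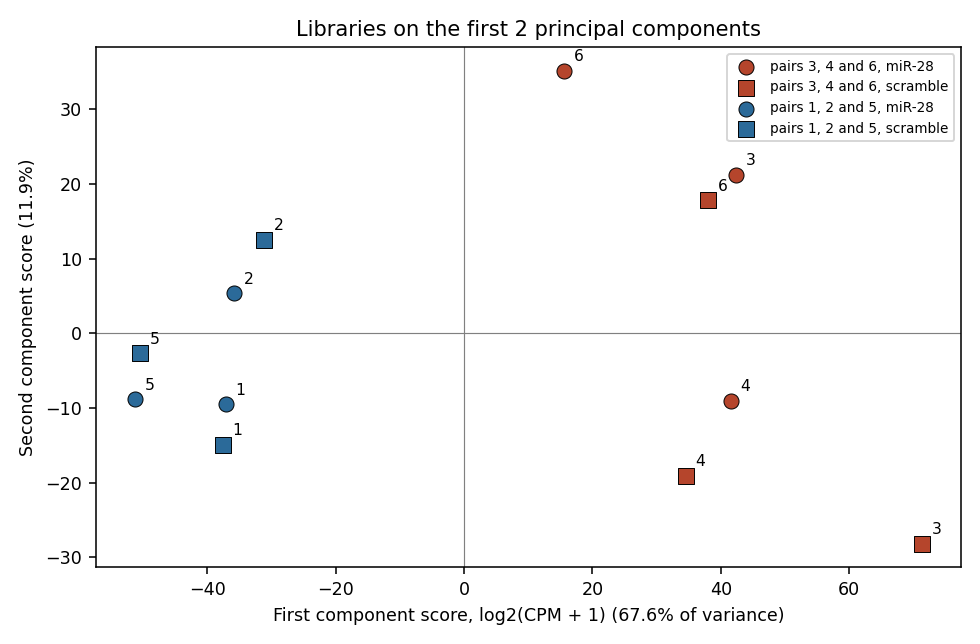
Each point is 1 of the 12 libraries, placed by its score on the first (horizontal) and second (vertical) principal component of log2(CPM + 1), with the share of variance on each axis and the pair number beside it; red points are pairs 3, 4 and 6, blue points pairs 1, 2 and 5, circles miR-28 and squares scramble. Red points lie between 15.6 and 71.3 on the horizontal axis and blue points between -51.3 and -31.2.

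A gene was counted where its mean log2(CPM + 1) differed by at least 1 between the sides, with vector as a term, and its 6 values on each side did not overlap. By that rule 889 genes, 6.99% of 12725, were higher in pairs 3, 4 and 6, and 845, 6.64%, were lower. Without the demand on size, 2535 genes were higher without overlap (19.9%) and 2545 lower (20%). These shares come from the values that set the division, so nothing is read from them beyond its breadth. Just inside the limit for higher genes were RBM41 and TTBK2, at 1.0003 and 1.002, and just outside were TMEM267 and BBS4, each at 0.998. For lower genes FERMT3 and SLC27A4 lay inside, each at -1.001, and SHCBP1 and MAPKAPK3 outside, at -0.9994 and -0.99997. The balance of directions depends on the scaling. In CPM without scaling factors, 1317 genes (10.3%) were counted as higher and 560 (4.4%) as lower, 70.2% and 29.8% of those counted, against 51.3% and 48.7% with the deposited scaling, and the median over all genes was 0.17 in place of 0.01.

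The counted genes differed in kind as well as in direction. Genes lower in pairs 3, 4 and 6 took 5.30 to 7.86% of the reads of those libraries, against 14.7 to 17.9% in pairs 1, 2 and 5. Genes higher there took 4.41 to 7.91%, against 1.52 to 2.17%. The lower genes were protein coding in 94.2% of cases and the higher ones in 77.1%, beside 85.5% of all genes, and non-coding genes made up 3.20% of the lower, 15.9% of the higher and 9.59% of all genes. The median level over the 12 libraries was 60.1 CPM for lower genes, 12.9 CPM for higher genes and 32.9 CPM for all. Coding genes counted as lower had a median longest transcript of 2715 bases and a median GC content of 53.1%, against 3985 bases and 47.5% for higher ones and 3675.5 bases and 47.9% for all. The part of transcript length, GC content or depth in the differences was not tested.

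Chaperones and their client proteins of the cytoskeleton stood at the head of the lower genes. HSPA8 (ENSG00000109971, GRCh38 chromosome 11, 123057489 to 123063230), the constitutive HSP70 chaperone of the cytosol, had the largest difference of all named genes. In pairs 3, 4 and 6 it measured 54.7 CPM at the lowest, 79.2 at the median and 143 at the highest, against 986, 1215 and 1553 CPM in pairs 1, 2 and 5. Every library of one side thus lay several-fold from every library of the other. The log2 difference was -3.89 with a standard error of 0.224 (n = 6 libraries a side). In bulk RNA of this kind, fewer cells of a type and less RNA per cell cannot be told apart.

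The 250 bases upstream of the HSPA8 start, from RefSeq on GRCh38.p14 (chr11:123062137-123062386, minus strand), are shown because they hold 2 matches to the heat shock element searched here, GAANNTTCNNGAA on either strand, printed in capitals, which 0.287% of 9404 promoters contained.
HSPA8: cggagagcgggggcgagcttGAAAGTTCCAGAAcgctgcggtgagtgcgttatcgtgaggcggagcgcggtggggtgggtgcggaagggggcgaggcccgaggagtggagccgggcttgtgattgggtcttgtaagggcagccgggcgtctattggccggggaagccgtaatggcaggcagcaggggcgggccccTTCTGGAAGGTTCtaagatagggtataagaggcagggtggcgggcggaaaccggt

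Of 18 promoters of the heat shock list 3 (16.7%) held the heat shock element, and those of HSP90AB1 and HSP90AA1 did not. The cytosolic HSP90 chaperones were low alongside HSPA8. HSP90AB1 measured 520, 580 and 1011 CPM (lowest, median and highest) in pairs 3, 4 and 6 and 2367, 2644 and 3344 CPM in pairs 1, 2 and 5, and HSP90AA1 differed by the same amount, -2.14. FKBP4, an HSP90 partner that binds steroid receptors, was the most even of them, at 39.1 to 51.2 CPM in pairs 3, 4 and 6 and 199.8 to 247 CPM in pairs 1, 2 and 5, a log2 difference of -2.28 with a standard error of 0.0914. DNAJA1, an HSP40 partner of HSPA8, differed by -1.77, and HSPE1, the small mitochondrial chaperonin, by -1.66. Of 19 measured heat shock genes 11 were lower without overlap, beside 20% of all genes, and 1, DNAJB4, was higher (0.78); their median was -1.32. The group of HSP90 co-chaperones, which shares members with that one, had 14 of 18 lower and a median of -1.04.

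Tubulins, the subunits of microtubules, and the ring-shaped CCT chaperonin that folds tubulin and actin were low in the same libraries. TUBB measured 232, 287 and 532 CPM (lowest, median and highest) in pairs 3, 4 and 6 and 1805, 1861 and 2836 CPM in pairs 1, 2 and 5, a log2 difference of -2.73 with a standard error of 0.234. TUBA1B differed by -2.54, TUBB4B by -2.52 and TUBA1C by -2.38. Of 13 measured tubulin genes 10 were lower without overlap (76.9%, beside 20% of all genes). TUBE1, the epsilon tubulin of centrioles, was higher (0.83). CCT5 differed by -2.06 and TCP1 by -1.40, and 10 of 14 genes of the chaperonin and its partner prefoldin were lower without overlap, at a median of -0.87. ACTB, the cytoplasmic beta-actin, measured 821, 877 and 1199 CPM in pairs 3, 4 and 6 and 2985, 3286 and 4676 CPM in pairs 1, 2 and 5. Of 38 genes of actin and migration 21 were lower (55.3%) and 4 higher (10.5%) without overlap, beside 20% and 19.9% of all genes. Tubulin and actin genes have near-identical copies and pseudogenes, so how reads were divided among them is uncertain. The lists of tubulins, chaperonin and HSP90 partners were drawn up after the values had been seen, as were those of the MAX network, nucleotide and fatty acid synthesis, importins, translation factors and tRNA synthetases.

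**Figure D2:**
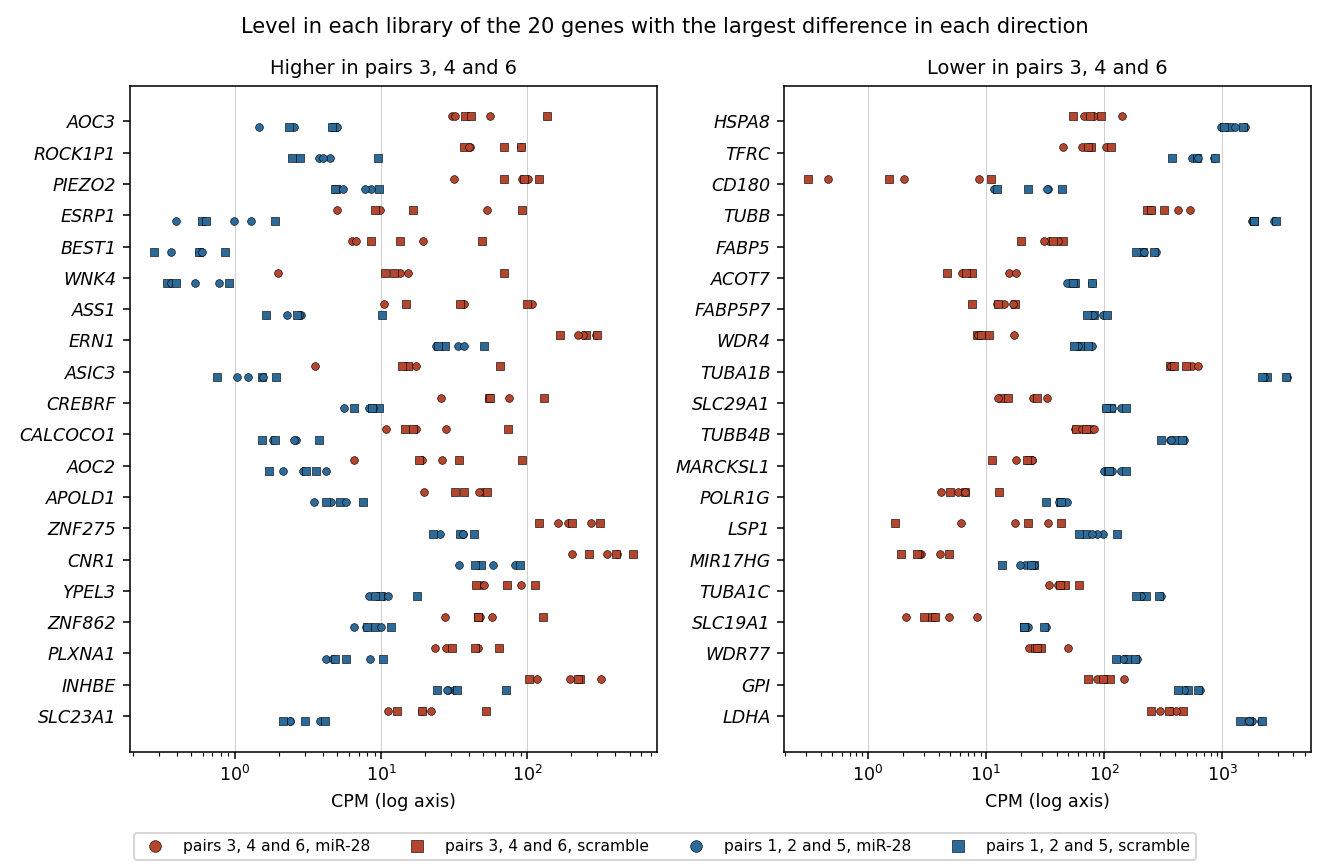
The level in CPM (log axis) of the 20 genes with the largest difference in each direction is plotted for every library, with pairs 3, 4 and 6 (red, upper of each row) and pairs 1, 2 and 5 (blue, lower), circles for miR-28 and squares for scramble. Red and blue points do not overlap for any of these genes, as the choice of genes required; HSPA8 lies at 54.7 to 143 CPM in red and 986 to 1553 CPM in blue.

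Genes that MYC is known to drive for ribosome production were lower, while MYC itself overlapped between the sides. MYC measured 390, 517 and 718 CPM (lowest, median and highest) in pairs 3, 4 and 6 and 548, 650 and 701 CPM in pairs 1, 2 and 5, a log2 difference of -0.29 with a standard error of 0.136. Both the lowest and the highest value of MYC belonged to pairs 3, 4 and 6. Its partner MAX differed by 0.01. MXD1, which competes with MYC for MAX, measured 13.8, 23.8 and 47.8 CPM in pairs 3, 4 and 6 and 4.30, 5.65 and 7.31 CPM in pairs 1, 2 and 5, a log2 difference of 1.96. MGA, another repressor of the network, was higher by 0.83 and MLX was lower, at -0.45. The other 7 of 10 measured members overlapped. In all 2 of 10 were higher without overlap (20%) and 1 lower (10%), beside 19.9% and 20% of all genes. The median of the list was 0.13.

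Of 45 measured MYC targets of ribosome biogenesis 34 were lower without overlap (75.6%, beside 20% of all genes) and 0 higher. Their median was -1.04, beside 0.01 over all genes. SRM, spermidine synthase, measured 43.0, 53.6 and 76.3 CPM in pairs 3, 4 and 6 and 227, 243 and 304 CPM in pairs 1, 2 and 5, a log2 difference of -2.18 with a standard error of 0.172. MYBBP1A, a nucleolar protein of ribosomal RNA synthesis, differed by -2.21, MRTO4, an assembly factor of the large subunit, by -1.91, and NOP16 by -1.70. POLR1G, a subunit of RNA polymerase I, stood at 4.18 to 12.9 CPM in pairs 3, 4 and 6 and 32.1 to 48.9 CPM in pairs 1, 2 and 5. MIR17HG, the host transcript of the miR-17 to miR-92 cluster and a known MYC target, stood at 1.93 to 4.90 CPM and 13.7 to 25.8 CPM, in the same order of sides. WDR4, part of a tRNA methyltransferase, differed by -2.56, and WDR77, the partner of the arginine methyltransferase PRMT5, by -2.37.

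The E-box CACGTG, the site that MYC and MAX bind, was searched on both strands in 300-base RefSeq promoters, 250 bases before to 50 after the start. It was present in 17 of 36 promoters of the ribosome biogenesis targets (47.2%) and in 3 of 21 glycolysis promoters (14.3%). The shares were 15.1% of 656 promoters of lower genes, 9.34% of 610 promoters of higher genes and 10.5% of 9404 promoters in all. The same sequence is read by other factors, and promoters of lysosomal genes, whose median difference was 0.20 over all libraries and -0.0074 in pair 4 against pair 5, held it in 8 of 21 cases (38.1%). The upstream stretches printed here are those of SRM and of LDHA, which encodes lactate dehydrogenase A; both hold it (in capitals); SRM lies at chr1:11060019-11060268 on the minus strand and LDHA at chr11:18394313-18394562 on the plus strand of GRCh38.p14.
SRM: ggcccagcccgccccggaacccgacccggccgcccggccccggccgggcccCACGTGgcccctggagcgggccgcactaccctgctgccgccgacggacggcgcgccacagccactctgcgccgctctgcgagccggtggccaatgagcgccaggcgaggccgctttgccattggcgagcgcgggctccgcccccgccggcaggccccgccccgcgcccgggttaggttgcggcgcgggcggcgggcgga
LDHA: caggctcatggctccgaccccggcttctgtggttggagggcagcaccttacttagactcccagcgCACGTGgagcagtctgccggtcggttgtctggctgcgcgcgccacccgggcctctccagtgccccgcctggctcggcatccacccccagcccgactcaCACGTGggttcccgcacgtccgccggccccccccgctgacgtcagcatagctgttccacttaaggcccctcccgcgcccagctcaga

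Glycolysis was low along nearly the whole path. LDHA measured 250.4, 359 and 466.4 CPM (lowest, median and highest) in pairs 3, 4 and 6 and 1421, 1735 and 2175 CPM in pairs 1, 2 and 5, a log2 difference of -2.35 with a standard error of 0.168. GPI, the second enzyme of the path, differed by -2.36, ALDOA by -2.20, TPI1 by -2.14, GAPDH by -1.83 and PKM, the pyruvate kinase, by -1.80. Of 23 measured genes 18 were lower without overlap (78.3%, beside 20% of all genes), at a median of -0.99. ENO2, the neuronal enolase, was higher (1.69) from a low level, with means of 5.91 ± 4.17 and 0.887 ± 0.255 CPM (SD, n = 6 a side).

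Synthesis of nucleotides and lipids was low too. Of 28 genes of nucleotide synthesis 24 were lower without overlap (85.7%, beside 20% of all genes). Among them were RRM2, the small subunit of ribonucleotide reductase, at -1.63 and ADSL, a purine enzyme, at -1.49. The carriers that bring such precursors in were among the 20 largest differences: SLC29A1, a nucleoside transporter, stood at 12.8 to 32.7 CPM in pairs 3, 4 and 6 and 103 to 152 CPM in pairs 1, 2 and 5, and SLC19A1, the folate carrier, at 2.09 to 8.40 and 21.0 to 32.4 CPM. Of 24 cholesterol genes 12 were lower (50%) and 2 higher (8.33%), beside 20% and 19.9% of all genes. FDFT1, squalene synthase, was among the lower at -1.53, and SREBF2, the factor that drives the pathway, among the higher at 0.53. FASN, fatty acid synthase, differed by -2.17 and FABP5, a fatty acid carrier, by -2.72. FABP5 shares reads with its pseudogene FABP5P7, so the split between them is uncertain. PRDX1, a peroxidase, differed by -2.11 and belongs to a list of NRF2 targets of which 12 of 17 were lower. TFRC, the transferrin receptor that takes up iron, measured 45.0, 75.8 and 114 CPM in pairs 3, 4 and 6 and 378, 619 and 869 CPM in pairs 1, 2 and 5, a log2 difference of -3.02.

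Genes of DNA replication and of mitosis were lower, and by unequal amounts in different libraries. MCM4, a subunit of the replicative helicase, measured 79.3, 114 and 162 CPM in pairs 3, 4 and 6 and 384, 502 and 596 CPM in pairs 1, 2 and 5, a log2 difference of -2.15 with a standard error of 0.170. FEN1, the flap endonuclease, differed by -1.89, UHRF1 by -1.82, GINS4 by -1.92 and PCNA, the sliding clamp, by -1.23. Of 57 measured genes of replication and the G1/S step 42 were lower without overlap (73.7%, beside 20% of all genes), at a median of -1.04. Among mitotic genes CCNB1, cyclin B1, differed by -1.96, CDC20, an activator of the anaphase-promoting complex, by -1.92 and KIF20A, a mitotic kinesin, by -1.90, while TOP2A differed by -0.75 and MKI67, the proliferation marker Ki-67, by -1.02. Of 62 mitotic genes 45 were lower and 0 higher, at a median of -0.76.

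The median level of the replication list, set against its mean in pairs 1, 2 and 5 on the log2 scale, shows how the libraries differed. In pair 3 it was -0.67 with miR-28 and -1.54 with scramble, in pair 6 it was -0.53 and -1.20, and in pair 4 it was -1.07 and -1.08. Libraries of pairs 1, 2 and 5 stayed between -0.14 and 0.16. The E2F element TTCCCGCC was present in 13 of 46 promoters of the replication list (28.3%), in 7.62% of promoters of lower genes, 3.77% of those of higher genes and 5.27% of all.

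**Figure D3:**
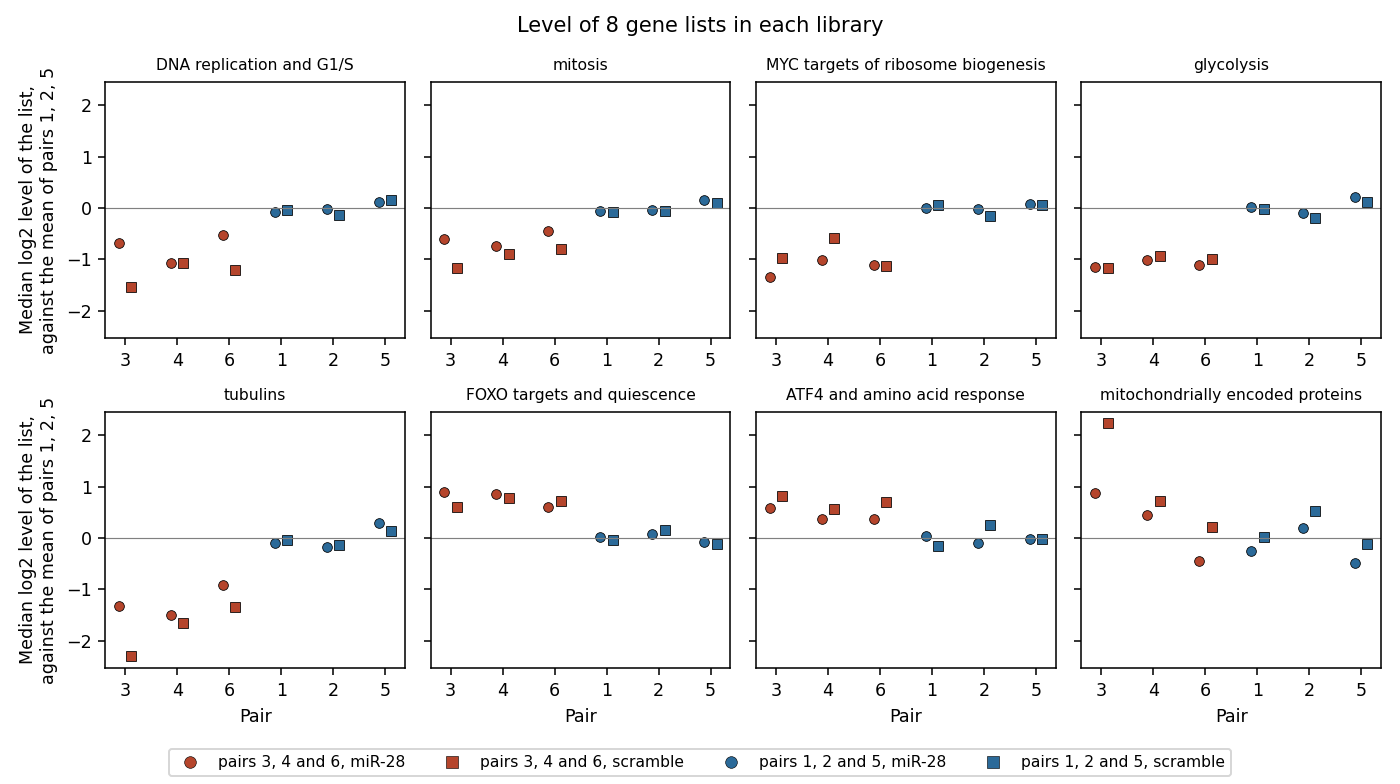
For 8 gene lists, each point gives 1 library's median log2 level over the genes of the list, set against the mean of pairs 1, 2 and 5 (vertical axis), by pair (horizontal axis), with pairs 3, 4 and 6 in red on the left, pairs 1, 2 and 5 in blue on the right, circles for miR-28 and squares for scramble. Glycolysis lies at -1.18 to -0.93 in all 6 red libraries, while DNA replication ranges there from -1.54 to -0.53 and mitochondrially encoded proteins overlap between the sides.

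Mitochondrial, proteasomal and translation genes of the nucleus showed smaller differences in the same direction. Of 78 nuclear genes of oxidative phosphorylation 53 were lower without overlap (67.9%, beside 20% of all genes) at a median of -0.55. NDUFB10, a complex I subunit, differed by -1.94, and NDUFB5 was the one higher (0.27). Of 78 mitochondrial ribosomal proteins 47 were lower at a median of -0.52, led by MRPL12 at -2.17. Of 38 proteasome genes 21 were lower at a median of -0.52, led by PSMD1 at -1.70. Importins and nuclear pore genes had 32 of 44 lower, with CSE1L, an exporter of importin alpha, at -1.93, and translation factors had 23 of 40, with EIF3B at -1.46. Cytosolic ribosomal proteins differed least, with 28 of 84 lower (33.3%), a median of -0.29 and RPL39L higher (0.67).

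Transcripts of the mitochondrial genome did not go with the nuclear ones. Their 13 protein genes had a median of 0.71, with 0 of 13 free of overlap. MT-CO1, of cytochrome c oxidase, averaged 7110 ± 5257 CPM in pairs 3, 4 and 6 and 2848 ± 756 CPM in pairs 1, 2 and 5 (SD, n = 6 a side). The median over the 13 genes was 1.64 in pair 3 against pair 1, 0.92 in pair 4 against pair 5 and -0.47 in pair 6 against pair 2, so the direction was not shared by the pairs.

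Among splicing factors, HNRNPA2B1 differed by -1.83 and SRSF2 by -1.55, while CLK1, a kinase that phosphorylates SR proteins, was higher by 1.44. Of 45 genes on that list 18 were lower (40%) and 4 higher (8.89%) without overlap, beside 20% and 19.9% of all genes.

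The leading higher genes had no single known role. AOC3, a cell-surface amine oxidase, measured 30.5, 39.1 and 137 CPM (lowest, median and highest) in pairs 3, 4 and 6 and 1.45, 3.58 and 4.98 CPM in pairs 1, 2 and 5, a log2 difference of 3.52 with a standard error of 0.378. AOC2, its neighbour and relative, differed by 2.71. PIEZO2, a mechanosensitive ion channel, measured 31.5, 93.2 and 120 CPM and 4.80, 6.62 and 9.66 CPM, in the same order of sides. ROCK1P1, a pseudogene of the kinase ROCK1, differed by 3.50, and its reads may be shared with its parent gene. CNR1, the cannabinoid receptor 1, stood at 202 to 527 CPM in pairs 3, 4 and 6 and 34.0 to 89.4 CPM in pairs 1, 2 and 5.

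Several of these genes were near their floor on one side and varied widely on the other. WNK4, a kinase of ion transport, stood at 1.97, 12.8 and 69.6 CPM in pairs 3, 4 and 6 and 0.344, 0.466 and 0.913 CPM in pairs 1, 2 and 5. ESRP1, a splicing regulator best known from epithelia, stood at 4.97 to 92.3 CPM and 0.394 to 1.88 CPM, and BEST1, a chloride channel, at 6.31 to 49.2 CPM and 0.278 to 0.858 CPM, in that order of sides. The log2 differences were 3.19 for WNK4, 3.36 for ESRP1 and 3.21 for BEST1, on a scale with 1 CPM added that understates low genes. ESRP1 ranged from 2.44 to 4.03 when single pairs were left out. ASIC3, a proton-gated channel, differed by 2.85, and APOLD1, PLXNA1, a semaphorin receptor, and SLC23A1, a vitamin C transporter, by 2.69, 2.43 and 2.41.

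A part of the integrated stress response genes was higher, while ATF4 mRNA overlapped between the sides. PPP1R15A, which directs dephosphorylation of eIF2 alpha, measured 130.0, 175 and 325 CPM in pairs 3, 4 and 6 and 29.6, 38.1 and 42.6 CPM in pairs 1, 2 and 5, a log2 difference of 2.30 with a standard error of 0.242. STC2, a secreted glycoprotein, differed by 2.40, TRIB3, a pseudokinase, by 1.98, DDIT3, the transcription factor CHOP, by 1.95 and CEBPB by 1.64. ATF4 itself averaged 1113 ± 111 CPM and 1136 ± 111 CPM (SD, n = 6 a side). Of 33 genes of the ATF4 and amino acid response 13 were higher without overlap, beside 19.9% of all genes, and 2 lower, at a median of 0.57. ASNS, asparagine synthetase and a widely used marker of this response, overlapped, at 0.31.

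ASS1, argininosuccinate synthase, which lets cells make arginine, varied among pairs. In pair 3 it measured 107 CPM with miR-28 and 99.1 with scramble, in pair 6 it measured 36.8 and 34.6, and pair 4 had 10.4 and 14.7. Pairs 1 and 5 stood between 1.63 and 2.74 CPM and pair 2 at 2.81 with miR-28 and 10.1 with scramble, so the sides were set apart by a narrow margin. INHBE, an activin subunit gene known to respond to ATF4, stood at 102 to 320.3 CPM in pairs 3, 4 and 6 and 24.2 to 70.9 CPM in pairs 1, 2 and 5. The tRNA synthetases, many of them ATF4 targets, were split, with 7 of 20 higher (35%), led by WARS1 at 1.51, and 7 lower (35%). Over all genes these shares were 19.9% and 20%. The composite element TGATGNAA of ATF4 and C/EBP factors was present in 7 of 29 promoters of the ATF4 list (24.1%), 2.30% of promoters of higher genes, 1.68% of those of lower genes and 1.71% of all.

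The unfolded protein response of the endoplasmic reticulum was divided. ERN1, which encodes the sensor IRE1 alpha, measured 167, 246 and 299 CPM in pairs 3, 4 and 6 and 23.8, 30.4 and 50.7 CPM in pairs 1, 2 and 5, a log2 difference of 2.89 with a standard error of 0.219. EDEM1 and SEL1L, of the pathway that degrades misfolded proteins, differed by 1.26 and 0.99, and DNAJB9 by 0.96. The chaperones of the same compartment went the other way, with SDF2L1 at -1.82, CALR, calreticulin, at -1.70, MANF at -1.52 and HSPA5, the chaperone BiP, at -1.11. In all 7 of 28 genes were higher without overlap (25%) and 9 lower (32.1%), beside 19.9% and 20% of all genes. The median of -0.10 became 0.07 without scaling factors. CREBRF, a regulator of the factor CREB3, differed by 2.77 and CALCOCO1, an adaptor of autophagy, by 2.77.

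Many genes of quiescence and autophagy were higher. YPEL3, a small protein linked to growth arrest, measured 44.6, 61.6 and 113 CPM in pairs 3, 4 and 6 and 8.23, 10.1 and 17.4 CPM in pairs 1, 2 and 5, a log2 difference of 2.52 with a standard error of 0.265, and its relative YPEL5 differed by 2.14. CDKN1B, the inhibitor p27 of cyclin-dependent kinases, differed by 1.21, BTG1, an antiproliferative gene, by 1.08 and PIK3IP1, an inhibitor of PI3 kinase, by 1.04. Of 24 genes of the FOXO and quiescence list 14 were higher (58.3%) and 1 lower (4.17%) without overlap, at a median of 0.76. Over all genes these shares were 19.9% and 20%. Of 23 autophagy genes 12 were higher (52.2%) and 1 lower (4.35%). GABARAPL1 and MAP1LC3B, which coat the autophagosome, differed by 2.01 and 1.81, and ULK1, the kinase that starts the process, by 1.85. The FOXO element GTAAACA was present in 5.57% of promoters of higher genes, 1.37% of those of lower genes and 2.30% of all.

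Genes of cell death went in both directions. BBC3 and BMF, which encode the killer proteins PUMA and BMF, differed by 1.66 and 1.59, and FAS, TNFRSF10B and TP53INP1 by 1.56, 1.25 and 2.05. BAX differed by -0.72 and MDM2, the p53 antagonist, by -0.71. Of 25 p53 targets 9 were higher (36%) and 4 lower (16%) without overlap, beside 19.9% and 20% of all genes. MCL1 and BCL2, which block cell death, overlapped between the sides, at 0.65 and 1.30, and BCL2 ranged from 0.81 to 2.14 when single pairs were left out. Of 24 NF-kB targets 6 were higher without overlap (25%, beside 19.9% of all genes) and 0 lower: RELB and NFKB2, of the alternative pathway, differed by 1.38 and 1.24, LTB, lymphotoxin beta, by 1.51 and CFLAR, an inhibitor of caspase-8, by 1.47. JUN was higher by 1.91 from a low level, and SAMD9L, an interferon-induced gene, by 2.20. Each was the highest of its list, and the lowest were DUSP2 at -1.65 and BST2 at -1.34. Of 21 immediate early genes 5 were higher (23.8%) and 1 lower (4.76%) without overlap. Of 26 interferon genes 6 were higher (23.1%) and 2 lower (7.69%), beside 19.9% and 20% of all genes.

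Zinc finger and non-coding genes added many small differences. KRAB zinc finger proteins include repressors of transposable elements. The list of their genes was drawn by symbol pattern, so some of its 394 members may lack the KRAB domain. Of the 394, 143 were higher without overlap (36.3%) and 20 lower (5.08%), at a median of 0.33. Among them ZNF275 differed by 2.60, ZNF862 by 2.46, ZNF91 by 1.81 and ZNF253 by 1.61. Zinc finger genes are close paralogs, and the counting could split their reads. ZFAS1, SNHG1 and GAS5, transcripts that host small nucleolar RNAs, differed by 1.54, 1.18 and 0.90. Their list also holds RNAs retained in the nucleus and MIR17HG, its lowest member at -2.45. Of its 23 measured RNAs 7 were higher (30.4%) and 2 lower (8.70%) without overlap, beside 19.9% and 20% of all genes. Of chromatin genes KDM6B, CHD2 and CHD1 were higher, at 1.74, 1.67 and 1.62. Their list as a whole was split, with 10 of 37 higher (27%) and 12 lower (32.4%) without overlap, beside 19.9% and 20% of all genes.

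**Figure D4:**
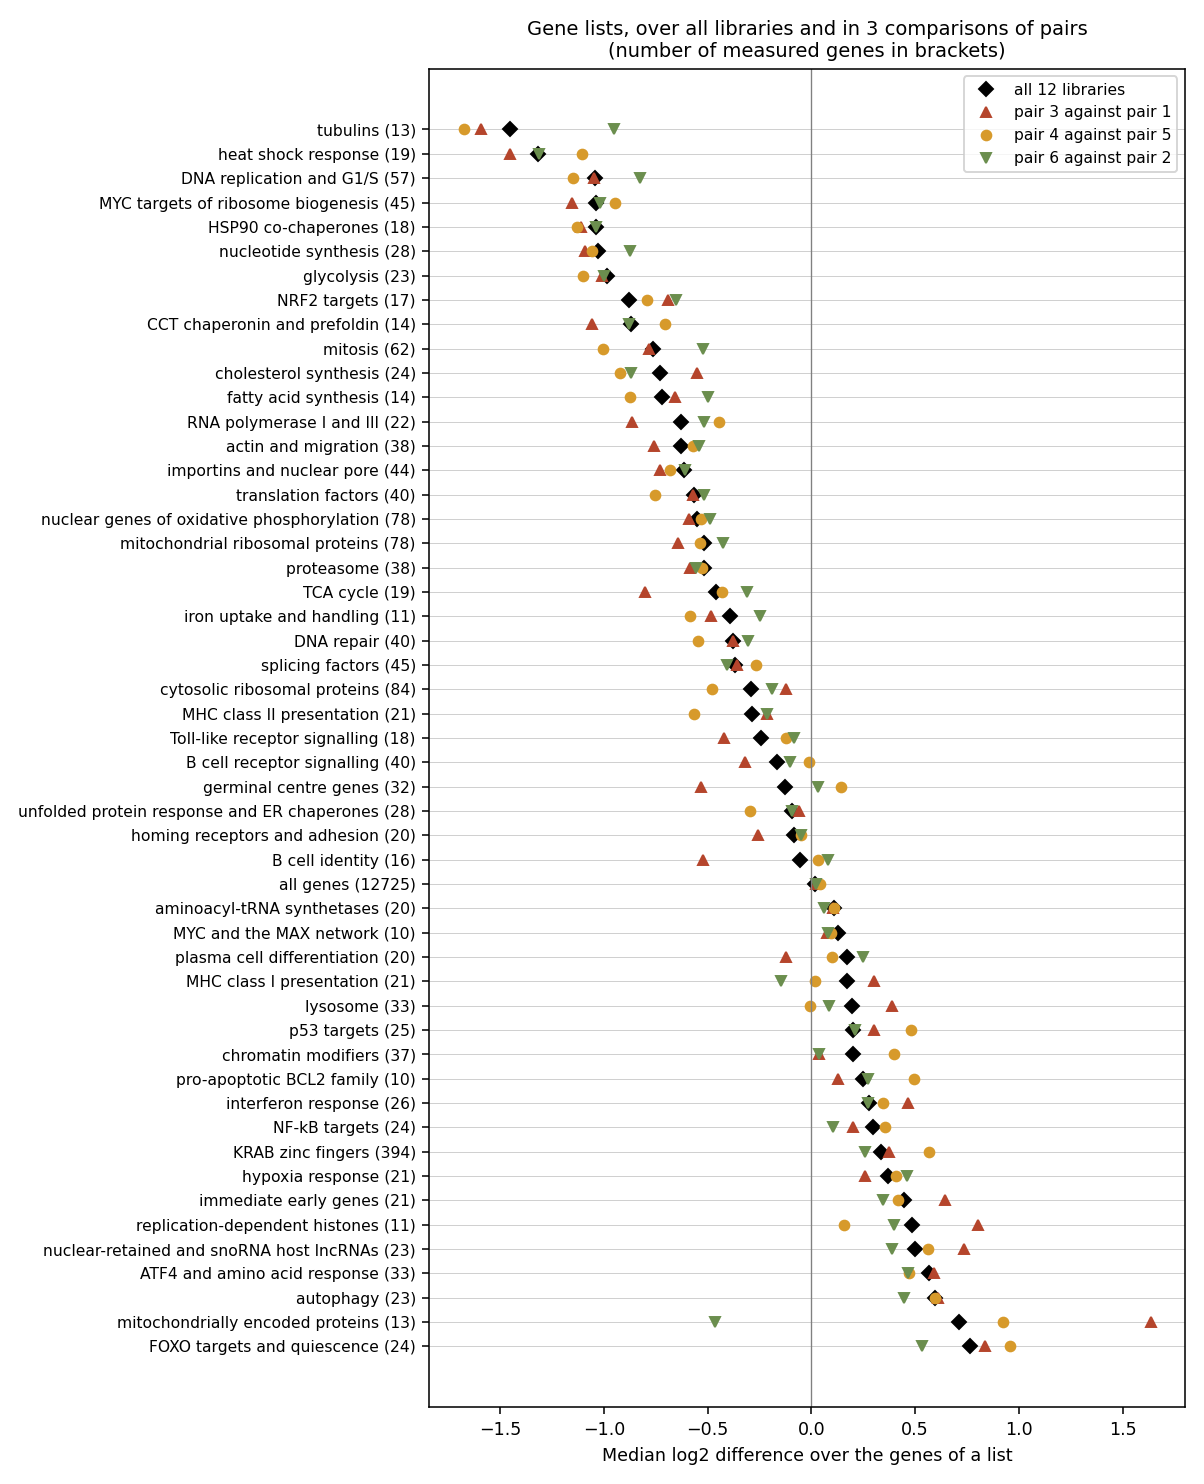
For each gene list with 10 or more measured genes (rows, number in brackets), the median log2 difference between the sides (horizontal axis) is given over all 12 libraries (black) and in the comparisons pair 3 against pair 1, pair 4 against pair 5 and pair 6 against pair 2 (colours). The 3 comparisons lie close together for glycolysis, HSP90 co-chaperones and autophagy, and apart for mitochondrially encoded proteins, which range from -0.47 to 1.64.

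B cell genes varied among the pairs. The median over the B cell identity list was -0.06 over all libraries, -0.52 in pair 3 against pair 1, 0.03 in pair 4 against pair 5 and 0.08 in pair 6 against pair 2. Its level, set against its mean in pairs 1, 2 and 5, was -0.56 to 0.18 in pairs 3, 4 and 6 and -0.12 to 0.10 in pairs 1, 2 and 5. CD79A, a signalling chain of the B cell receptor, averaged 558 ± 72.2 CPM in pairs 3, 4 and 6 and 570.3 ± 35.5 CPM in pairs 1, 2 and 5, and PAX5, the B lineage factor, 283 ± 112 and 281 ± 45.1 CPM (SD, n = 6 a side). The summed level of 16 measured B cell identity genes was 10644 to 12114 CPM and 10509.9 to 12009 CPM, in that order of sides. Of them 1 was higher (6.25%) and 3 lower (18.75%) without overlap, beside 19.9% and 20% of all genes. Those 3 were MS4A1, the antigen CD20, at -0.91, VPREB3 at -1.30 and TCL1A at -0.89. BTK, the kinase of receptor signalling, measured 51.7, 75.3 and 83.0 CPM in pairs 3, 4 and 6 and 158, 185 and 205 CPM in pairs 1, 2 and 5. In the receptor list 6 of 40 genes were lower (15%) and 3 higher (7.5%) without overlap, both below the shares of all genes.

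Single germinal centre, homing and antigen presentation genes stood out. CXCR4, the chemokine receptor of the dark zone, measured 1110, 1474 and 2184 CPM in pairs 3, 4 and 6 and 575, 619.9 and 714 CPM in pairs 1, 2 and 5, a log2 difference of 1.26. LMO2 differed by 1.33 and BCL6, the master regulator of the germinal centre, by 0.55. ELL3, the lowest of the germinal centre list, differed by -1.37. Of 32 measured genes of that list 5 were higher (15.6%) and 4 lower (12.5%) without overlap, beside 19.9% and 20% of all genes. The integrin genes ITGB7 and ITGAL differed by -1.65 and -1.62. CD74, the class II invariant chain, differed by -0.91, and 9 of 21 class II genes were lower and 0 higher, while HLA-F, HLA-E and B2M, of class I, were higher by 1.18, 0.77 and 0.74. HLA-F ranged from 0.74 to 1.47 when single pairs were left out. Of 21 genes of class I presentation 4 were higher (19%) and 6 lower (28.6%) without overlap, beside 19.9% and 20% of all genes. Their median of 0.17 was -0.15 in pair 6 against pair 2. The germinal centre list as a whole had a median of -0.13 that became 0.04 without scaling factors, and for the homing list -0.08 became 0.08.

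CD180, a Toll-like receptor relative of B cells, and LSP1, a leukocyte protein that binds actin, were low above all in pair 3. CD180 stood at 0.456 and 0.312 CPM in the miR-28 and scramble libraries of pair 3, at 8.72 and 11.04 in pair 4 and at 2.04 and 1.51 in pair 6, against 11.8 to 44.5 CPM in pairs 1, 2 and 5. LSP1 stood at 6.18 and 1.69 CPM in pair 3, 33.8 and 43.2 in pair 4 and 17.7 and 22.5 in pair 6, against 61.2 to 129 CPM in pairs 1, 2 and 5. The difference of LSP1 was -4.69 in pair 3 against pair 1 and -0.85 in pair 4 against pair 5.

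Few markers of other cells were measured. None of 15 myeloid or 10 epithelial genes was measured. Of 15 genes of stroma and endothelium 3 were measured, PECAM1, TAGLN and ACTA2, and their sum ranged from 7.79 to 38.3 CPM in pairs 3, 4 and 6 and from 3.42 to 5.03 CPM in pairs 1, 2 and 5. TAGLN and ACTA2, of smooth muscle actin filaments, differed by 2.17 and 1.62. Of 20 T cell genes 7 were measured, with a sum of 80.8 to 227 CPM and 211 to 325 CPM in that order of sides; LCK was lower without overlap (-1.23), and CD3 genes were not among those measured. The median of those 7 was -0.66, and 0.56 in pair 4 against pair 5. The part of other cells in the differences was not tested.

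In the 6 scramble libraries alone, 1181 genes (9.28%) were higher in pairs 3, 4 and 6 by the same rule and 1070 (8.41%) lower, 3 libraries against 3. Without the demand on size these were 29% and 28.2% of genes. In the 6 miR-28 libraries alone 875 genes (6.88%) were higher and 826 (6.49%) lower. Both vectors shared 675 higher genes, 57.2% of those in scramble and 77.1% of those in miR-28, and 633 lower genes, 59.2% and 76.6%. These libraries helped to set the division, so the shared genes are no separate evidence for it.

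The values of 3 leading genes in the scramble libraries follow. HSPA8 measured 54.7, 94.0 and 75.8 CPM in the scramble libraries of pairs 3, 4 and 6 and 1138, 1039 and 1499 CPM in those of pairs 1, 2 and 5. LDHA measured 250.4, 466.4 and 353 CPM in the scramble libraries of pairs 3, 4 and 6 and 1682, 1421 and 2175 CPM in pairs 1, 2 and 5, and ERN1 251, 167 and 299 CPM in pairs 3, 4 and 6 against 27.4, 50.7 and 24.3 CPM. These genes were chosen for no overlap over all libraries, so that their scramble libraries do not overlap was fixed by the choice. The log2 differences in scramble and in miR-28 libraries were -4.03 and -3.75 for HSPA8, -2.32 and -2.39 for LDHA, 2.80 and 2.99 for ERN1, and 3.85 and 2.52 for WNK4. The median over the mitosis list was -0.96 in scramble and -0.59 in miR-28 libraries, over the replication list -1.25 and -0.79, over glycolysis -0.99 and -1.11, and over the ribosome biogenesis targets -0.82 and -1.19.

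**Figure D5:**
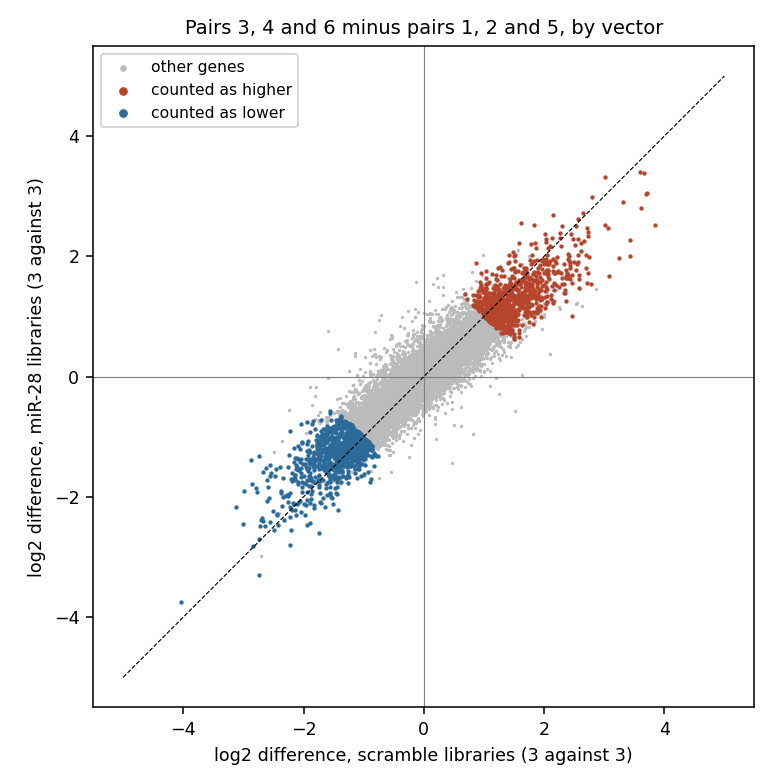
Each point is 1 of 12725 genes, placed by its log2 difference (pairs 3, 4 and 6 minus pairs 1, 2 and 5) in the 6 scramble libraries (horizontal axis) and the 6 miR-28 libraries (vertical axis), with the 889 genes counted as higher in red, the 845 counted as lower in blue and the dashed line at equal differences. The counted genes lie along the line in both directions, from -4.03 in scramble for HSPA8 upward.

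Pairs with shared labels could be set against each other. Pair 4 and pair 5 share library batch 2 and XENO 1, and between them 792 of the 889 higher and 765 of the 845 lower genes differed by at least 1, at medians of 1.44 and -1.49; the sign of each was fixed by the demand for no overlap. Pair 3 against pair 1, in library batch 1, gave medians of 1.53 and -1.39 for the same genes, and pair 6 against pair 2, both XENO 2, gave 1.00 and -1.09. In the last of these 443 of 889 and 514 of 845 genes reached 1. Each comparison uses libraries that set the division.

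Whether the miR-28 effect differed between the sides could be tested, because the difference within a pair is another contrast. The main fit, the interaction of vector and side in limma without a term for the pair, called 0 of 12725 genes (0.0%). The limit was a Benjamini-Hochberg adjusted p under 0.05, and the smallest adjusted p was 0.922, with 372 genes at an unadjusted p under 0.05. Libraries of a pair deviated together, so a fit that leaves out the pair can miss differences. Blocking on the pair again gave 0 calls in limma, with 1634 genes at an unadjusted p under 0.05 and a smallest adjusted p of 0.377. The edgeR quasi-likelihood test called 0, with 406 genes at an unadjusted p under 0.05. By chance about 636 of 12725 genes would fall under that limit. The 3 smallest unadjusted p-values belonged to SLX1B, BRIP1 and CKMT1A, at 0.00136, 0.00197 and 0.00266 in limma (adjusted p = 0.922 each). BRIP1, a helicase of DNA repair, differed between miR-28 and scramble by 1.07 in pair 3, 0.31 in pair 4 and 1.04 in pair 6, against -0.26, 0.21 and -0.07 in pairs 1, 2 and 5 on the log2 scale. SLX1B and CKMT1A have near-identical copies, so their reads are uncertain.

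With the pair as a block the count depended on pair 4. With pair 4 left out and pair as the block, 741 genes (5.82%) passed in limma, 462 with a higher and 279 with a lower miR-28 effect in pairs 3 and 6 than in pairs 1, 2 and 5; the other 11 fits that left out a pair called 0, among them the fit without pair 4 and without the block (smallest adjusted p = 0.195). RAD54L, a recombination protein chosen after its values were seen, differed between miR-28 and scramble by 1.47 in pair 3 and 1.62 in pair 6, by -0.04 in pair 4 and by -0.10, -0.05 and -0.08 in pairs 1, 2 and 5. POLA2, a subunit of the primase complex, chosen likewise, gave 1.55 and 1.5 in pairs 3 and 6, -0.19 in pair 4, while pairs 1, 2 and 5 gave -0.01, 0.15 and -0.06. In CBX6, a Polycomb protein also chosen after its values were seen, they were -1.64 and -1.68 in pairs 3 and 6 and -0.17 in pair 4. Pairs 1, 2 and 5 gave 0.05, 0.28 and 0.11. DESeq2 called 1 gene (0.00786%), ENSG00000270898 (adjusted p = 0.0193), at 0.500 to 1.69 CPM in pairs 3, 4 and 6, while in pairs 1, 2 and 5 it stood at 0.259 to 3.21 CPM with miR-28 and had no read with scramble.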

How the data were processed

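Polyadenylated RNA of sorted Ramos cells was read as 12 libraries. Per the submitters' processing notes, RSEM 1.2.3, CASAVA 1.8.2 and cutadapt were used with GRCh38; sources used here do not give the annotation release or the scaling. The authors deposited a signal per gene, 1 column a library. All values were whole multiples of 1 read within 0.01 reads, and edgeR's TMM factors differ from the scaling only by rounding, so the values are CPM scaled by TMM. The lowest maximum of a gene was 1.15 CPM. Positions came from GENCODE 29, which held 12595 of 12725 genes, and 11881 had a symbol; promoters came from RefSeq.

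The division was read from these same values, and its members and all lists were chosen with earlier results of these data known; 13 of 56 lists and 34 genes were added after the values had been seen. Differences are from limma 3.58.1 in R 4.3.3 on log2(value + 1) with vector and side. They carry no test. The genes named are the 20 with the largest difference in each direction among those with a mean of 5 or more that do not overlap and keep their sign in each batch and in pair 4 against pair 5, up to 4 of each list, every member of a list of 12 or fewer, and the 3 smallest p-values of the interaction. The interaction of vector and side was tested by limma, with edgeR 4.0.16 and DESeq2 1.42.0 on the recovered reads as alternatives, since the values are not counts, and the fit was tested on simulated data. Both libraries of a pair deviated together. Their deviations correlated at 0.697 to 0.882 from the vector means and at 0.445 to 0.616 from the means of vector and side. The main fit of the interaction held no term for the pair, and the pair as a block was an alternative. A value of 3 reads was 0.0830 to 0.181 CPM, which covers counting error only. Some of the genes chosen are not reported here by name.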

Additional observations from a re-analysis of the deposited data

Results flagged for a closer look

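Of 428 groups of 6 values examined, 18 held a library far from the other 5, and chance flags about 1 in 20. The scramble library of pair 3 was the one in 7 of them. Among pairs 3, 4 and 6 it had the highest share of mitochondrial reads (7.45%, next 3.43%) and the lowest FEN1 (48.4 CPM, next 74.2). Its list levels were the highest for replication-dependent histones (1.41, next 0.55) and for nuclear-retained RNAs and hosts of small nucleolar RNAs (1.17, next 0.58). The same held for MYC and the MAX network (0.47, next 0.24). Its levels were the lowest for plasma cell differentiation (-0.40, next 0.08) and for homing receptors (-0.53, next -0.18).

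The miR-28 library of pair 6 was the highest of pairs 3, 4 and 6 in WDR4 (17.3 CPM, next 10.5), WDR77 (49.3, next 29.5) and MLX (77.5, next 60.5), and the lowest in the autophagy list (0.34, next 0.55). The scramble library of pair 4 was the highest in HSP90AB1 (1011 CPM, next 608) and FDFT1 (262 CPM, next 209) and the lowest in CLK1 (103 CPM, next 129). The scramble library of pair 6 was the lowest in PIK3IP1 (83.6 CPM, next 106). Among pairs 1, 2 and 5 the scramble library of pair 2 was the highest in ASS1 (10.1 CPM, next 2.81) and INHBE (70.9 CPM, next 32.8) and the lowest in the list of RNA polymerase I and III (-0.11, next 0.00).

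A difference of the miR-28 effect between the sides was called for 741 genes without pair 4 and with the pair as a block, and for 1 gene by DESeq2, against 0 in limma with all pairs.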

How the results depend on the processing

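The counts of higher and lower genes stayed within 1.5 times under the other pseudocount of 0.5, DESeq2 size factors, the filter on low values, batch as a term, 1 value a pair and edgeR's fold changes. With a pseudocount of 5, 402 genes were higher, and 565 in the scramble libraries; without scaling factors, 560 were lower. With single pairs or libraries left out, 729 to 1173 were higher and 727 to 1028 lower, and in scramble 844 to 1434 and 920 to 1269. The cause of these shifts was not tested, but a larger pseudocount shrinks low genes by construction. Of the named genes' values 2357 moved by less than their spread, 295 by more and 0 reversed; of the list medians the numbers were 721, 191 and 6. A reversal was counted only for a gene without overlap, or a list whose median exceeded its spread within a side. For a gene without overlap, dropping libraries or changing the pseudocount cannot reverse the sign. The 0 for genes was thus largely fixed by that rule. Values nearer 0 also crossed it: PAX5 (-0.37 to 0.25 with single pairs left out), MAX, ATF4, CD79A and MYC, and the lists of B cell identity, germinal centre genes (-0.13, but 0.24 in batch 2), MHC class I (0.17, but -0.15 in pair 6 against pair 2), plasma cell differentiation (0.17, but -0.12 in pair 3 against pair 1), homing and the unfolded protein response. The 6 reversed were mitochondrially encoded proteins in pair 6 against pair 2 (-0.47), lysosome in pair 4 against pair 5 (-0.0074), T cell markers in library batch 2 (0.17), in XENO 1 (0.18) and in pair 4 against pair 5 (0.56), and MYC and the MAX network in batch 2 (-0.022). For the interaction, the fit with the pair as a block called 0 genes, leaving out pairs gave 0 to 741 with the highest without pair 4, and DESeq2 called 1. The division itself cannot be paired, since each pair lies on one side. Depth limits genes near 1 CPM.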
